A study of Homo sapiens with 6 samples.

Results

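The aminoacyl-tRNA synthetases and their scaffold proteins were examined in T98G cells in which the kinase DYRK1A had been depleted. Members were taken by gene symbol: the cytosolic enzymes (a letter for the amino acid followed by ARS, together with EPRS, FARSA, FARSB and TARSL2), the mitochondrial enzymes (symbols ending in 2), and AIMP1, AIMP2 and EEF1E1, the non-enzymatic proteins that hold the multisynthetase complex together. The rule found 41 of the 23026 genes in the normalized table. Of these, 19 encoded cytosolic enzymes, 17 encoded mitochondrial enzymes, 2 (GARS and KARS) encoded both forms from the same gene, and 3 encoded scaffold proteins.

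Each synthetase joins an amino acid to its cognate tRNAs, and the charged tRNAs supply the ribosome. The cytosol and the mitochondrion have separate sets of enzymes, both encoded in the nucleus, and in human cells only the glycine and lysine enzymes serve both places. When amino acids run short or the endoplasmic reticulum is stressed, the transcription factor ATF4 induces many cytosolic synthetase genes, amino acid transporters and serine synthesis genes through a composite element known as the CARE or amino acid response element.

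T98G is a human glioblastoma line. Cells infected with a lentivirus expressing a control hairpin (shControl) or a hairpin to DYRK1A (shDYRK1A) were selected in puromycin, and 3 libraries per condition, named 1A, 1B and 1C, were sequenced from poly(A) RNA. Equal numbers of T98G cells had been mixed with a fixed number of Drosophila Kc167 cells, and the authors' spike-in normalized counts, here called normalized counts, scale each library by the fly reads. A lower normalized count can reflect less RNA per cell or fewer T98G cells per fly cell, which cannot be told apart. The labels do not say that the letters mark separate infections, so p-values measure the spread between these libraries, and with a single hairpin named per condition an effect of the hairpin other than on DYRK1A cannot be told apart either.

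The libraries held between 33708297 and 42154438 counts in human genes, and shDYRK1A 1B was the shallowest, with 15.6% unmapped reads against 8.44 to 11.9% in the other libraries. DYRK1A, the hairpin target, changed by -0.73 ± 0.15 (SE; edgeR adjusted p = 5.33e-06) on the log2 scale with spike-in scaling. The median of all genes tested was -0.40 on that scale. Under TMM scaling, explained below, DYRK1A changed by -0.34 (edgeR adjusted p = 5.91e-04). Of 8 genes fixed as T98G markers, 7 were above 10 CPM (counts scaled to a fixed total per library) in every library, and NES lay between 1.29 and 2.02 CPM. The summed level of the 8 was 6746 to 6781 CPM in shControl and 5860 to 6028 CPM in shDYRK1A. The glial genes GFAP, SOX2 and S100B were at or near 0 in every library, although the labels give brain as the tissue, and the summed level of the glial list was 1.57 to 1.94 CPM in shControl and 1.14 to 1.39 CPM in shDYRK1A. Of 6 markers of other cell types, 5 were below 1 CPM, and their sum was 1.21 to 1.46 CPM in shControl and 1.54 to 2.53 CPM in shDYRK1A. The part of these differences in the results was not tested.

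Synthetase mRNAs were lower across the family in DYRK1A-depleted cells on the spike-in scale, with a median slightly below that of all genes. Of the 41 members, 37 passed a filter of more than 10 normalized CPM on average and were tested with edgeR's quasi-likelihood test, with Benjamini-Hochberg adjustment over all 9697 genes that passed it. All 37 had a negative log2 fold change on that scale, as did 93.6% of all genes tested, whereas under TMM scaling, which sets the bulk of human genes to no change, 28 were negative (49.6% of all genes). At an adjusted p below 0.05, 33 fell and 0 rose, where 63.4% of all genes tested fell and 1.08% rose. The median log2 fold change of the members was -0.49, beside -0.40 for all genes tested. Under TMM the members' median was -0.08, with 15 that fell (28.6% of all genes) and 3 that rose (HARS, VARS2 and AIMP2; 27.3% of all genes). The normalized counts of the 3 shDYRK1A libraries lay below all 3 shControl libraries for 34 of the 37 (63.6% of all genes), and for 20 of the 37 under TMM (32.5% of all genes), with 6 members above (30.7% of all genes). Thus the sign of the change for the milder members depended on the scale.

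**Figure D1:**
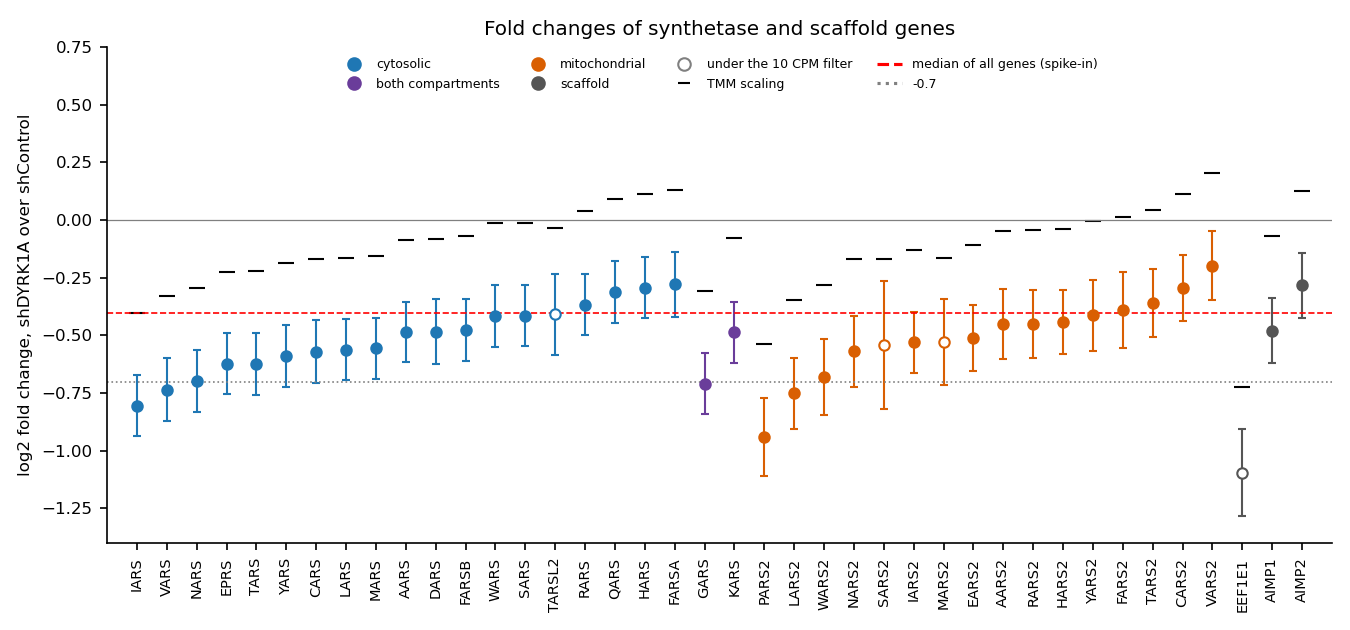
Log2 fold change of 40 genes (y axis; shDYRK1A over shControl), ordered by class and value along the x axis, with circles and SE bars for spike-in scaling (3 libraries per group, edgeR), open circles for genes under the 10 CPM filter taken from a fit with a looser filter, and black dashes for TMM scaling. All circles lie below 0, most cytosolic enzymes lie below the dashed line at the median of all genes (-0.40), and the upper end of the cytosolic, mitochondrial and scaffold classes turns positive under TMM, while GARS and KARS stay negative.

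A log2 fold change past 0.7 in addition to the adjusted p, the study's threshold, was met by 5 members, all lower: the dual GARS, the cytosolic IARS and VARS, and the mitochondrial LARS2 and PARS2, the last of which passed the 10 CPM filter only through its shControl level. This share is close to that of all genes, of which 14.3% were called lower. None was called higher (0.278% of all genes). Several members lay at the threshold, and the count ranged from 2 to 8 when a library was left out. It was 2 (IARS and PARS2) without shControl 1B or without shDYRK1A 1B, where 1128 and 908 of all 9697 genes were called lower. It was 8 without shControl 1C or without shDYRK1A 1A, where 2093 and 2083 of all genes were called lower. With TMM scaling 0 members were called, where 1.93% of all genes were called lower and 1.25% higher, although 15 fell at an adjusted p below 0.05.

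The cytosolic synthetases known as transcriptional targets of ATF4 were examined apart from the rest. This list holds AARS, CARS, EPRS, GARS, IARS, LARS, MARS, NARS, SARS, TARS, WARS and YARS, and it was drawn from general knowledge with earlier results of these data known. All 12 fell, where 63.4% of all genes fell. Their median log2 fold change was -0.58, and all 12 lay below the median of all genes. Under TMM scaling all 12 remained negative and 9 fell, with 0 that rose. Of all genes, 49.6% were negative, 28.6% fell and 27.3% rose under TMM. The other cytosolic or dual enzymes (DARS, FARSA, FARSB, HARS, KARS, QARS, RARS, TARSL2 and VARS, of which TARSL2 was under the filter) had a median of -0.42, with 7 of 8 that fell and 4 of 8 below the median of all genes. Under TMM, 1 of these 8 fell (VARS) and 1 rose (HARS). The difference between the medians of the lists depended little on the scaling, at -0.159 with spike-in scaling and -0.165 with TMM. With spike-in scaling it ranged from -0.19 to -0.14 when each library was left out.

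The library values in this and the next paragraph come from the same counts and the same list as the fold changes above. They describe the contrast library by library and are no independent support for it. Relative to the median of all genes in the same library, the median level of the 12 ATF4 targets was 0.02, -0.04 and 0.02 on the log2 scale in the shControl libraries and -0.16, -0.20 and -0.17 in shDYRK1A. The shDYRK1A libraries all lay below the shControl libraries. For the 8 other enzymes it was 0.03, -0.01 and -0.01 in shControl and -0.02, 0.02 and -0.01 in shDYRK1A, so the groups overlapped.

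In raw counts, which carry no size factor, the 12 ATF4 targets took 0.331% (95% Wilson interval 0.330 to 0.333), 0.318% (0.316 to 0.320) and 0.334% (0.332 to 0.336) of all human gene counts in shControl 1A, 1B and 1C. In shDYRK1A 1A, 1B and 1C they took 0.297% (0.295 to 0.298), 0.279% (0.277 to 0.280) and 0.297% (0.295 to 0.299). The groups did not overlap, and the means were 0.328% ± 0.008 (SD, n = 3) and 0.291% ± 0.011 (SD, n = 3), for which the two-sided exact permutation test over 3 against 3 libraries can give no p below 0.1. The 9 other cytosolic or dual enzymes took 0.143% ± 0.002 (SD, n = 3) in shControl, against 0.143% ± 0.001 (SD, n = 3) after depletion. The 17 mitochondrial enzymes took 0.0774% ± 0.0013 (SD, n = 3) and 0.0746% ± 0.0017 (SD, n = 3), and the 3 scaffold genes 0.0151% ± 0.0006 (SD, n = 3) and 0.0153% ± 0.0003 (SD, n = 3). The intervals describe counting error alone, because no molecular identifiers were used and PCR copies are not separate molecules.

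**Figure D2:**
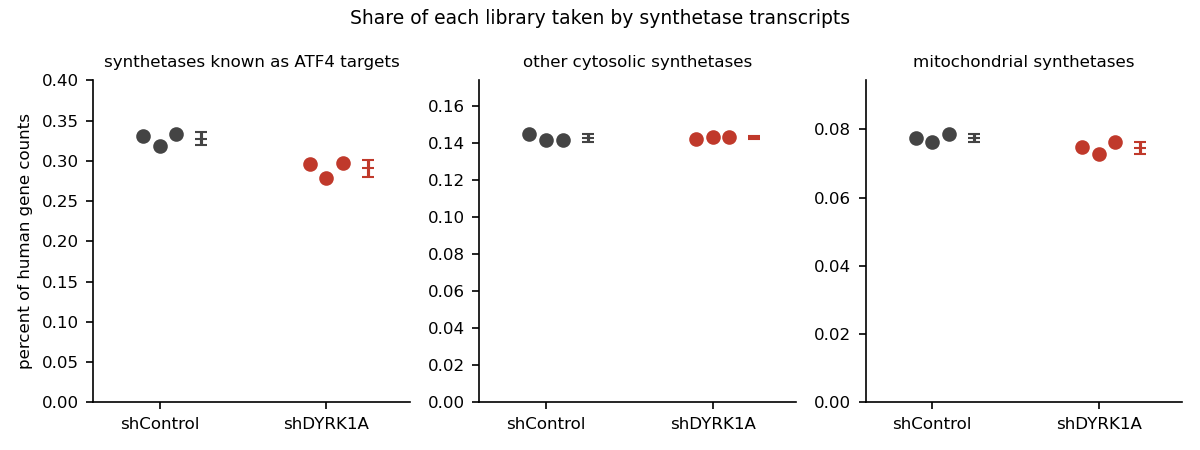
Percent of all human gene counts (y axis, from 0) taken by 12 synthetases known as ATF4 targets, 9 other cytosolic or dual enzymes and 17 mitochondrial enzymes, with a dot per library and the mean ± SD of 3 libraries beside the dots. The share of the ATF4 targets went from 0.328 to 0.291% with no overlap, while the other cytosolic enzymes stood at 0.143% in both groups.

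The promoters of these genes were read from RefSeq (GRCh38.p14, 250 bases before to 50 bases after the annotated start), where 33 of the 41 members were matched. The core of the ATF4 composite element, TGATGNAA on either strand, was searched because it is the letters by which ATF4 targets are usually recognized. It was present in 6 of the 10 matched ATF4 targets, in 0 of the 6 other cytosolic or dual enzymes and in 1 of the 14 mitochondrial enzymes, while 3.62% of all 35116 promoters of this length hold it. Such an element is part of why these genes are known as ATF4 targets, so the count is a description of the list and not independent of it. In all 6 the letters were TGATGCAA or its reverse complement, and the first base of the element lay at -13 (IARS), 14 (NARS), 2 (TARS), -2 (CARS), -4 (MARS) and -187 (AARS) from the RefSeq start, counted as 0. The stretches around the element are shown 5′ to 3′ on the strand of the gene, with the element in capitals, in the order IARS (chr9:92293683-92293730, minus strand), NARS (chr18:57621807-57621842, minus), TARS (chr5:33440947-33440994, plus), CARS (chr11:3057398-3057445, minus), MARS (chr12:57488044-57488091, plus) and AARS (chr16:70289666-70289713, minus), followed by the only mitochondrial match, YARS2 (chr12:32756067-32756114, minus).
IARS: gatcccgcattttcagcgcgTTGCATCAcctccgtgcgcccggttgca
NARS: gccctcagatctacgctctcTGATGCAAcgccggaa
TARS: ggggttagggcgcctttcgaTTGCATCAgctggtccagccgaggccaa
CARS: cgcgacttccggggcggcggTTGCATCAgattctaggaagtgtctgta
MARS: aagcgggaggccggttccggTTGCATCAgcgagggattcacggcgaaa
AARS: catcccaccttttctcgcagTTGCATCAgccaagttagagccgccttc
YARS2: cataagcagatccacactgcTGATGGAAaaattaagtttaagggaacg
The match in YARS2 differs from the others in the N of the core. The palindrome TCTCGCGAGA, the sequence associated with DYRK1A recruitment in the study, was found in 0 of the 33 matched members and in 0.424% of all promoters. Only the exact letters were searched here, whereas the study graded matches to the motif by p-value. At so low a share, a count of 0 does not set the members apart from other promoters.

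Isoleucyl-tRNA synthetase had the lowest fold change among the tested cytosolic enzymes. IARS (ENSG00000196305; GRCh38 chromosome 9, 92210207 to 92293756, minus strand) had normalized counts of 17287, 16746 and 14318 in the shControl libraries 1A, 1B and 1C, against 10109.9, 7941 and 9632 in the shDYRK1A libraries. Every shDYRK1A library lay well below every shControl library, and the mean in shDYRK1A was 57.3% of that in shControl. The log2 fold change was -0.80 ± 0.13 (SE; edgeR adjusted p = 2.36e-08), and it was -0.40 (adjusted p = 2.41e-05) under TMM. VARS, the valyl-tRNA synthetase (ENSG00000204394; GRCh38 chromosome 6, 31777518 to 31795953, minus strand), was at 6765, 7320.4 and 5989 in shControl, against 4270.4, 3748 and 4040.2 in shDYRK1A in the order 1A, 1B and 1C. The groups did not overlap, and the log2 fold change was -0.74 ± 0.14 (SE; edgeR adjusted p = 8.33e-07), or -0.33 (adjusted p = 1.17e-04) under TMM. VARS is not on the ATF4 list, and it was the only enzyme outside it that fell under TMM among the cytosolic and dual enzymes.

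The next in order were all ATF4 targets. NARS, which charges asparagine tRNA and carries the element shown above just inside its transcript, was at 10302, 9773 and 8358 in shControl, against 6380.1, 5106 and 6027 in shDYRK1A. Its shDYRK1A libraries were all lower, with a log2 fold change of -0.70 ± 0.13 (SE; edgeR adjusted p = 1.94e-06), just short of the size threshold. EPRS, the bifunctional enzyme that charges both glutamate and proline tRNAs, was at 14668, 13626 and 12320.1 in shControl, against 9683, 7431 and 9247 in shDYRK1A. Here too the groups were apart, and the log2 fold change was -0.62 ± 0.13 (SE; edgeR adjusted p = 1.72e-05). TARS, the threonine enzyme, was at 12938, 12523 and 10692 in shControl, against 8888, 6869 and 7711 in shDYRK1A, again without overlap, and its log2 fold change was -0.62 ± 0.13 (SE; edgeR adjusted p = 1.82e-05). The remaining ATF4 targets YARS, CARS, LARS, MARS, AARS, WARS and SARS fell by log2 fold changes between -0.59 (YARS) and -0.41 (SARS), and only AARS, WARS and SARS of these did not pass the test under TMM, with fold changes of -0.09, -0.01 and -0.01.

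At the other end, QARS, HARS and FARSA had the 3 highest fold changes among the cytosolic enzymes, all above the median of all genes. QARS, the glutaminyl-tRNA synthetase of the multisynthetase complex, was at 9817, 9871 and 8517 in shControl, against 8059, 7149.8 and 7499.6 in shDYRK1A. Its groups were apart by a narrow margin, and its log2 fold change was -0.31 ± 0.13 (SE; edgeR adjusted p = 0.0315), which turned to 0.09 (adjusted p = 0.0843) under TMM. HARS, the histidine enzyme, was at 9230.3, 8844 and 7480.3 in shControl, against 7525, 6484 and 6851 in shDYRK1A, so that shDYRK1A 1A lay above shControl 1C. Its log2 fold change was -0.29 ± 0.13 (SE; edgeR adjusted p = 0.0450) and it was 0.11 (adjusted p = 0.0327), a rise, under TMM. FARSA, the catalytic subunit of phenylalanyl-tRNA synthetase, was at 3092, 3171 and 2605 in shControl, against 2519, 2303 and 2487 in shDYRK1A, narrowly apart. Its log2 fold change of -0.28 ± 0.14 (SE; edgeR adjusted p = 0.0718) did not pass the test, being 0.13 (adjusted p = 0.0503) under TMM. Its partner subunit FARSB, fell, at a log2 fold change of -0.48 (edgeR adjusted p = 0.00124). The call of QARS was lost without shControl 1A, shControl 1B, shDYRK1A 1B or shDYRK1A 1C, with adjusted p from 0.0997 to 0.145, and that of HARS without the same libraries, with adjusted p from 0.141 to 0.228. HARS also missed the threshold with the looser filter (edgeR adjusted p = 0.0555), and with no filter both HARS (adjusted p = 0.0875) and QARS (adjusted p = 0.0624) missed it.

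Both genes that serve the 2 compartments fell, and GARS had the lower fold change, a difference that was not tested. GARS, the glycyl-tRNA synthetase and an ATF4 target (ENSG00000106105; GRCh38 chromosome 7, 30594681 to 30634033, plus strand), was at 22051, 20561 and 18208 in shControl, against 13659, 11001 and 12529 in shDYRK1A. The groups were far apart, at a mean of 61.1% of shControl, and the log2 fold change was -0.71 ± 0.13 (SE; edgeR adjusted p = 7.29e-07) and -0.31 (adjusted p = 1.27e-04) under TMM. KARS, the lysyl-tRNA synthetase, was at 17171, 16178 and 13524 in shControl, against 12286, 10295 and 10891 in shDYRK1A, also without overlap. Its log2 fold change was -0.49 ± 0.13 (SE; edgeR adjusted p = 7.42e-04) and -0.08 (adjusted p = 0.138) under TMM.

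The mitochondrial enzymes ranged more widely than the cytosolic ones only through PARS2 and VARS2. Of 17, 15 were tested, with MARS2 and SARS2 under the filter, and 13 of the 15 fell, where 63.4% of all genes fell, with a median log2 fold change of -0.45. Under TMM the median was -0.05 and 5 of the 15 fell, where 28.6% of all genes fell. The 18 tested cytosolic enzymes, without GARS and KARS, had a median of -0.52 and 17 of them fell, and under TMM they had a median of -0.12 and 9 of them fell. Single enzymes ran from -0.80 to -0.28 in the cytosolic and from -0.94 to -0.20 in the mitochondrial class. The ends of the mitochondrial range were PARS2, which passed the filter only through shControl, and VARS2, whose count is uncertain. The next enzymes inward, LARS2 at -0.75 and CARS2 at -0.29, lay within the cytosolic range. The difference between the class medians was -0.07, beside an SD of 0.04 between replicates, and it lay between -0.08 and -0.04 when each library was left out. It turned to 0.03 when TARSL2, MARS2 and SARS2 entered with a looser filter and was -0.01 with means in place of medians, so its direction depended on which enzymes were included.

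PARS2, the mitochondrial proline enzyme (ENSG00000162396; GRCh38 chromosome 1, 54756898 to 54764514, minus strand), had the lowest fold change of all tested members. It was at 623, 583 and 472 in the shControl libraries 1A, 1B and 1C, against 322, 269 and 282 in the shDYRK1A libraries, which leaves shDYRK1A at 52.0% of the shControl mean. The groups did not overlap, the log2 fold change was -0.94 ± 0.17 (SE; edgeR adjusted p = 3.24e-07), and it was -0.54 (adjusted p = 1.48e-04) under TMM. This gene was among the least abundant tested, at 10.8 CPM over both groups. Its mean was 14.2 CPM in shControl and 7.40 CPM in shDYRK1A, so it passed the filter only through the group in which it was high. LARS2, the mitochondrial leucine enzyme (ENSG00000011376; GRCh38 chromosome 3, 45388506 to 45549421, plus strand), was at 1606, 1662 and 1268 in shControl, against 992, 783 and 918 in shDYRK1A. All shDYRK1A libraries were lower, with a log2 fold change of -0.75 ± 0.15 (SE; edgeR adjusted p = 6.82e-06) and of -0.34 (adjusted p = 4.75e-04) under TMM. WARS2, for tryptophan, was at 678, 721 and 604 in shControl, against 464, 349 and 434 in shDYRK1A, without overlap, and its log2 fold change was -0.68 ± 0.16 (SE; edgeR adjusted p = 1.48e-04) and -0.28 (adjusted p = 0.00740) under TMM. None of the 3 is on the ATF4 list.

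The mitochondrial enzymes at the upper end were TARS2, CARS2 and VARS2. TARS2, for threonine, was at 2095, 2047 and 1838 in shControl, against 1659.8, 1468 and 1532 in shDYRK1A, and although the groups were apart, its log2 fold change of -0.36 ± 0.15 (SE; edgeR adjusted p = 0.0237) became 0.04 (adjusted p = 0.509) under TMM. The call of TARS2 was lost without shControl 1A, shControl 1B, shDYRK1A 1B or shDYRK1A 1C, with adjusted p from 0.0674 to 0.128. CARS2, for cysteine, was at 3257, 3208 and 2682 in shControl, against 2659, 2458 and 2338 in shDYRK1A, with a narrow gap between the groups. Its log2 fold change of -0.29 ± 0.14 (SE; edgeR adjusted p = 0.0564) did not pass the test, and it was 0.11 (adjusted p = 0.113) under TMM. VARS2, for valine, was at 1301, 1572 and 1229 in shControl, against 1336, 1089.6 and 1152 in shDYRK1A. Its groups overlapped, its log2 fold change of -0.20 ± 0.15 (SE; edgeR adjusted p = 0.234) did not pass the test, and under TMM it rose, by 0.20 (adjusted p = 0.0268). VARS2 shares 22.0% of its exonic bases with GTF2H4 on the same strand, so its count is uncertain. The other tested mitochondrial enzymes lay between -0.57 (NARS2) and -0.39 (FARS2), and all fell.

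MARS2, SARS2 and the cytosolic TARSL2, a second threonyl-tRNA synthetase, were under the filter and appear as values. MARS2 was at 325, 252 and 268 in shControl, against 237, 169.6 and 179 in shDYRK1A. SARS2 was at 74.3, 56.7 and 64.3 in shControl, against 38.8, 46.3 and 48.6 in shDYRK1A, and TARSL2 was at 409, 373 and 327 in shControl, against 291, 258 and 285 in shDYRK1A. The shDYRK1A libraries were below the shControl libraries for each of the 3, as were 48.2% of the 17530 genes that a looser filter (edgeR's filterByExpr) admits. SARS2 has 46.2% of its exonic bases in common with the overlapping gene AC011455.2 on the same strand, so its count and its low level are uncertain.

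Among the scaffold proteins the change was uneven. EEF1E1, also known as AIMP3 (ENSG00000124802; GRCh38 chromosome 6, 8073360 to 8102578, minus strand), was under the filter, at 352, 380.1 and 277 in shControl, against 187, 137 and 147 in shDYRK1A. It had the lowest ratio of all 41 members, at 46.7% of the shControl mean, with all shDYRK1A libraries below all shControl libraries. In the fit with the looser filter, on 17530 genes, its log2 fold change was -1.10 (edgeR adjusted p = 1.37e-07), a call that 14.2% of those genes shared, and it stayed between -1.24 and -0.999 when each library was left out. Under TMM in that fit it was -0.72 (edgeR adjusted p = 6.50e-05), the only member called under TMM, where 2.88% of the 17530 genes were called lower. EEF1E1 shares 18.7% of its exonic bases with the read-through gene EEF1E1-BLOC1S5. AIMP1, whose secreted fragment is also a cytokine, was at 3892, 3681 and 2955 in shControl, against 2778, 2365 and 2407 in shDYRK1A. Its groups were apart, and its log2 fold change was -0.48 ± 0.14 (SE; edgeR adjusted p = 0.00186) but only -0.07 (adjusted p = 0.269) under TMM. Without shControl 1A the call of AIMP1 was lost, with an edgeR adjusted p of 0.05001. AIMP2 was at 3321, 3172 and 2591 in shControl, against 2693, 2352 and 2419 in shDYRK1A, with shDYRK1A 1A above shControl 1C. Its log2 fold change of -0.28 ± 0.14 (SE; edgeR adjusted p = 0.0672) did not pass the test and became 0.13 (adjusted p = 0.04999), a rise that only just passed, under TMM. AIMP2 overlaps EIF2AK1 on the opposite strand over 28.9% of its exonic bases. The kit marks strand, but the setting used in counting is not given in the sources used here.

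The enzymes inside and outside the complex had close medians. The 8 enzymes of the multisynthetase complex (DARS, EPRS, IARS, KARS, LARS, MARS, QARS and RARS) had a median log2 fold change of -0.52, with 8 of 8 that fell and 6 of 8 negative under TMM, where 63.4% of all genes fell and 49.6% were negative under TMM. The 12 tested cytosolic or dual enzymes outside it had a median of -0.53, with 11 of 12 that fell and 10 of 12 negative under TMM.

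Levels of cytosolic and mitochondrial enzymes for the same amino acid were compared per kilobase of exon. In shControl the cytosolic enzyme was the more abundant in 16 of 18 pairs, and the median ratio over all 18 pairs was 6.21. GARS was the most abundant gene at 4883 normalized counts per kilobase, followed by AARS at 3864 and KARS at 3844. The median cytosolic enzyme stood at 1425 and the median mitochondrial enzyme at 313 normalized counts per kilobase. Both exceptions were pairs in which the mitochondrial enzyme was abundant. IARS2, at 2311 normalized counts per kilobase, was the most abundant mitochondrial enzyme and stood slightly above IARS at 2178, and HARS2 at 1221 stood slightly above HARS at 1085. The order of both pairs rests on the annotated exon lengths. These were 7401 bases for IARS and 4165 for IARS2, and 7853 bases for HARS and 3736 for HARS2. In both pairs the cytosolic enzyme had the more counts per gene. The widest gap was 158-fold between SARS and SARS2, where the overlap of SARS2 with another gene applies.

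**Figure D3:**
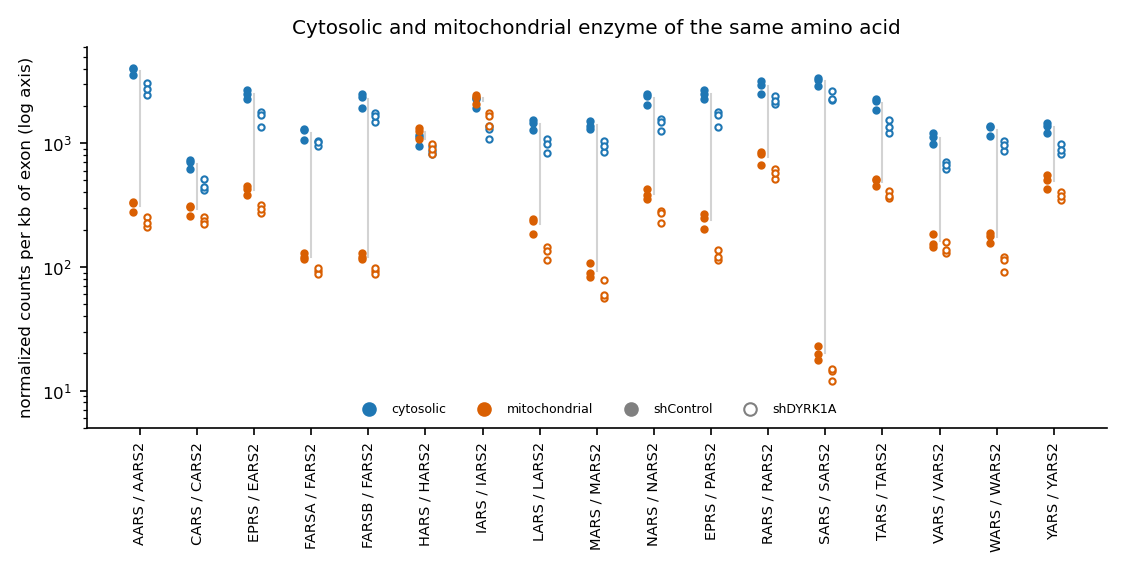
Normalized counts per kilobase of exon (y axis, log scale) of the cytosolic (blue) and mitochondrial (orange) enzyme of each pair (x axis), with filled dots for the 3 shControl libraries, open dots for the 3 shDYRK1A libraries and a grey line between the shControl means. The cytosolic enzyme is higher in 15 of the 17 pairs drawn, and HARS with HARS2 and IARS with IARS2 nearly coincide.

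Since the size factor cancels in a ratio of 2 genes of one library, the cytosolic over mitochondrial ratio was followed in each pair. Of the 18 ratios, 7 were lower in every shDYRK1A library than in every shControl library, 5 were higher in every one and 6 overlapped. That is 12 of 18 without overlap, where 63.8% of all ratios between 2 tested genes do not overlap, and the median change was -0.03 on the log2 scale. The two-sided exact permutation test of 3 against 3 libraries, used for each pair, can give no p below 0.1, which is 0.15 after Benjamini-Hochberg adjustment over the 18 pairs. EPRS and FARS2 each enter 2 pairs.

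The largest shift was in the valine pair, in which the count of VARS2 is uncertain because of its overlap with GTF2H4. VARS over VARS2 was 5.20, 4.66 and 4.87 in the shControl libraries and 3.20, 3.44 and 3.51 in shDYRK1A, a log2 change of -0.54 (exact permutation p = 0.1). The proline pair differed in the other direction, as EPRS over PARS2 was 23.5, 23.4 and 26.1 in shControl and 30.04, 27.7 and 32.8 in shDYRK1A, a log2 change of 0.31 (exact permutation p = 0.1). For isoleucine, IARS over IARS2 was 1.69, 1.69 and 1.64 in shControl and 1.38, 1.38 and 1.40 in shDYRK1A, a log2 change of -0.27 (exact permutation p = 0.1) with little spread between libraries. In these 3 pairs the groups did not overlap. PARS2 is the gene that passed the 10 CPM filter only through its shControl level.

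HARS and HARS2 are neighbours transcribed away from each other on chromosome 5. HARS2 was at 4939, 4693 and 4058 in shControl, against 3659, 3062 and 3356 in shDYRK1A. Its groups were apart, and its log2 fold change was -0.44 ± 0.14 (SE; edgeR adjusted p = 0.00352) but -0.04 (adjusted p = 0.468) under TMM. The call of HARS2 was lost without shControl 1A (adjusted p = 0.0557). HARS over HARS2 was 1.87, 1.88 and 1.84 in shControl and 2.06, 2.12 and 2.04 in shDYRK1A, a log2 change of 0.15 without overlap (exact permutation p = 0.1). Between their RefSeq starts lies an interval of 84 bases, chr5:140691371-140691454 (GRCh38.p14, plus strand, the strand of HARS2), shown because both promoters share it, with the ETS-type core CCGGAAGT on either strand in capitals.
HARS-HARS2 interval: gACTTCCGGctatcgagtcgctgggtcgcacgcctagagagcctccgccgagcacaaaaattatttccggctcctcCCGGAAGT
A copy of the core thus lies next to each start. The same core was found in 7 of the 33 matched members and in 4.14% of all promoters. Both HARS and HARS2 are among these 7 through the same copies in the shared interval, which are thus counted for each gene. The models of HARS and HARS2 overlap on opposite strands over 15.8% of the exonic bases of HARS2.

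Other factors of tRNA charging were listed to place the enzymes in their pathway. Of 17 listed genes 12 were tested and 7 fell, where 63.4% of all genes fell, with a median log2 fold change of -0.39, beside -0.40 for all genes, and of 0.02 under TMM. XPOT, which exports tRNAs from the nucleus and is also on the amino acid response list, changed by -1.55 ± 0.14 (SE; edgeR adjusted p = 1.64e-25), further than any synthetase, and by -1.14 under TMM. The only other gene called was QRSL1, the catalytic subunit of the amidotransferase that makes mitochondrial glutaminyl-tRNA, at -0.88 ± 0.16 (SE; edgeR adjusted p = 2.33e-07), named after its value was seen. GATC, another subunit of that enzyme, was the highest at -0.26 ± 0.15 (SE; edgeR adjusted p = 0.109), which did not pass the test. TUFM, which brings charged tRNA to the mitochondrial ribosome, changed by -0.30 ± 0.13 (SE; edgeR adjusted p = 0.0413), and by 0.11 under TMM. The 71 tested genes of mitochondrial ribosomal proteins had a median of -0.34, with 39 that fell, a smaller share than that of all genes. Under TMM they had a median of 0.07, with 15 that fell (28.6% of all genes) and 19 that rose (27.3% of all genes).

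The amino acid response genes, which share ATF4 with the 12 synthetases on the ATF4 list, had lower fold changes as a list than the synthetases. This list too was chosen with earlier results of these data known, so its counts describe the list and are no independent support. Of the list's 26 genes with counts, 25 were tested. Of these 25, 22 fell, where 63.4% of all genes fell, and 15 were called lower, where 14.3% of all genes were. Their median log2 fold change was -0.79, and under TMM it was -0.38, with 17 that fell (28.6% of all genes) and 3 that rose (27.3% of all genes). CHAC1, a glutathione-degrading enzyme, was the lowest at -1.83 ± 0.17 (SE; edgeR adjusted p = 1.00e-24), and it too passed the filter only through its shControl level, with means of 23.2 CPM in shControl and 6.53 CPM in shDYRK1A. ASNS, the asparagine synthetase used as a marker of the response, changed by -0.72 ± 0.14 (SE; edgeR adjusted p = 1.32e-06), and by -0.32 (adjusted p = 2.85e-04) under TMM. ATF4 itself changed by -0.55 ± 0.13 (SE; edgeR adjusted p = 1.07e-04), but only by -0.14 (adjusted p = 0.0375) under TMM. ATF5, a related factor, was the highest at 0.11 ± 0.15 (SE; edgeR adjusted p = 0.512), which did not pass the test, and it rose by 0.52 under TMM (adjusted p = 9.47e-05). Set beside these, the 12 ATF4-target synthetases lay between the median gene and the response genes, at -0.58.

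**Figure D4:**
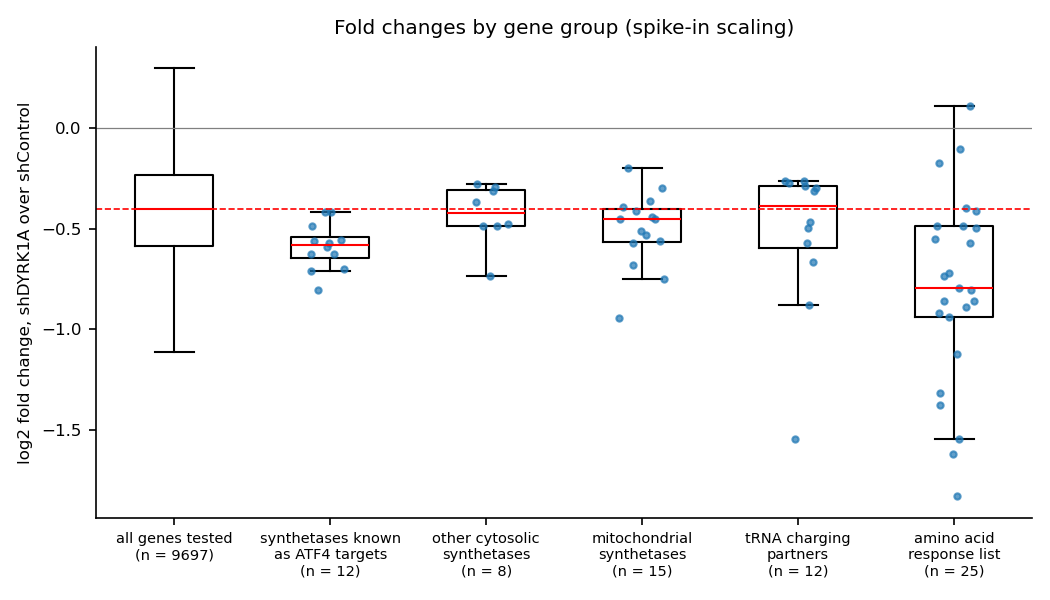
Log2 fold changes (y axis; shDYRK1A over shControl, spike-in scaling) of all 9697 genes tested and of 5 gene groups, with a dot per gene, boxes from the lower to the upper quartile with the median in red, and whiskers to the furthest gene within 1.5 interquartile ranges. The dashed line is the median of all genes (-0.40), below which lie all 12 ATF4-target synthetases (median -0.58), while the 8 other cytosolic enzymes center near it (-0.42) and the amino acid response genes extend down to -1.83.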

How the data were processed

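Libraries were made with a stranded mRNA kit from T98G cells mixed with Drosophila cells, and the builds hg38 and dm3, STAR and DESeq2 are named in the submitters' processing notes. The authors deposited raw counts for 58174 human genes per library, used for all tests, and a normalized signal for 23026 genes, in which each library's counts are divided by a constant from the fly reads. These constants, 0.821 to 1.03 in shControl and 1.06 to 1.21 in shDYRK1A, served as size factors. The counting annotation is not given in the sources used here, and gene coordinates and exon lengths follow GENCODE v29 (the same coordinates for 95.8% of genes). The authors' table of their own comparison (fold changes and p-values) was not used. Rows that name no gene were left out of library sizes: 8.44 to 15.6% of the total were unmapped, 2.26 to 2.49% multimapping, 3.66 to 4.81% outside features and 3.42 to 3.59% ambiguous.

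Genes above a mean of 10 normalized CPM were fitted with edgeR 4.0.16 (glmQLFit and glmQLFTest, robust) in R 4.3.3, with Benjamini-Hochberg adjustment, and a call needed both an adjusted p below 0.05 and a log2 change past 0.7. The SE was obtained as the log2 change over the root of F. Exact permutation tests used scipy 1.17.1. The steps were tested on simulated data. The alternatives tried were scaling by TMM or by median of ratios, DESeq2 1.42.0, filterByExpr, a minimum of 1 count, a block for the replicate letter, the adjusted p alone, means in place of medians, GARS and KARS counted as cytosolic, and each library left out. For EEF1E1, leaving out each library and TMM within the filterByExpr fit were chosen after seeing the data. The members and gene lists were chosen with earlier results of these data known. Values in every library were given for the 5 lowest and 3 highest cytosolic and the 3 lowest and 3 highest mitochondrial enzymes, EPRS, GARS, KARS, HARS, HARS2 and the scaffold genes, and from the other lists the lowest and highest genes with XPOT, TUFM, ATF4 and ASNS. A further mitochondrial enzyme entered every count and median but is not reported here by itself, and its pair is not drawn.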

Additional observations from a re-analysis of the deposited data

How the results depend on the processing

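The fold changes of the named members kept a negative sign under both other filters and with each library left out, and those of the named members other than EEF1E1, which was not fitted there, also under DESeq2 and the replicate block. The scale of the libraries decided the rest. With TMM and with median-of-ratios scaling the cytosolic median was -0.121 and -0.118, the mitochondrial median was -0.0487 and -0.0455, and the count of members called lower was 0 and 0. Under these 2 scalings the sign turned for QARS (0.093 and 0.096), HARS (0.114 and 0.117), FARSA (0.130 and 0.133), TARS2 (0.044 and 0.047), CARS2 (0.114 and 0.117), VARS2 (0.204 and 0.207) and AIMP2 (0.126 and 0.129), since both move the median of all genes from -0.40 to about 0. The adjusted p alone gave 33 members in place of 5, since it drops the size limit. The cytosolic minus mitochondrial median, -0.069, was 0.027 with filterByExpr and 0.027 with no filter, which admit TARSL2, MARS2 and SARS2, and -0.013 with means. Leaving out each library gave 2 to 8 members called lower, where 908 to 2093 of all 9697 genes were called lower. It gave differences between the classes of -0.083 to -0.043, and 7 to 8 pair ratios lower in every shDYRK1A library. DESeq2 called the same 5 genes, and 36 members passed an adjusted p of 0.05 against 33, among them FARSA, CARS2 and AIMP2. For EEF1E1 the libraries left out and TMM were chosen after seeing the data.

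The letters shared by the groups were not taken to pair the libraries: deviations from the group means correlated at 0.151 for 1A, 0.073 for 1B and 0.128 for 1C over genes, although each library correlated best with its own letter, a hint from the data only. With the letter as a replicate block 5 members were called lower, the same 5, and 32 fell, since HARS (-0.29) missed the threshold with an edgeR adjusted p of 0.0570. The effect of depth was not tested.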
